A study of Mus musculus with 6 samples.

Results

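Proteasome genes were examined in 6 RNA-seq libraries of mouse induced T (iT) cells, 3 of CD4 single-positive (CD4SP) and 3 of CD8 single-positive (CD8SP) cells. The members were the genes whose symbols begin with Psma to Psmg followed by a digit and that had at least 1 TPM (a transcript level corrected for gene length and scaled to 1 fixed total per library) in at least 3 of the 6 libraries. Of 49 such symbols, 47 passed, among 10476 genes that passed in the whole table of 23420. One of the 47, Psmc3ip, matches by name only: it encodes a partner of PSMC3 known from meiotic recombination, was listed at 9.57 to 26.5 TPM and is left out of every count below. The 46 others were 14 core genes, 20 regulatory genes, 5 immunoproteasome genes and 7 others (the activators Psme3 and Psme4, the inhibitor Psmf1 and the assembly chaperones Psmg1 to Psmg4).

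All 6 libraries share 1 origin. Embryonic stem cells of C57BL/6 background (CD45.2) with a doxycycline-inducible Runx1-p2a-Hoxa9 cassette in Rosa26 (iR9) were differentiated with doxycycline into blood progenitors, which were injected into irradiated adult B-NDG mice, a CD45.1 NOD strain carrying Prkdc scid and a null Il2rg and so without T, B and NK cells of its own but with host myeloid cells. The iT cells were taken from recipient spleen and sorted in aliquots of 1000 cells as CD45.2+ cells that were CD4+ or CD8+, with erythroid, B lineage and myeloid cells gated out. The study describes recipients kept without doxycycline and others fed it, and does not state which gave these libraries. It treats each library as a biological replicate. Whether libraries with the same replicate number came from the same mouse is not given in the sources used here, so p-values measure only the spread between these libraries. The coreceptor genes followed the sort: Cd4 was at 279 to 331 TPM in CD4SP and at most 0.104 in CD8SP, and Cd8a at 1038 to 1161 TPM in CD8SP and at most 2.93 in CD4SP. Cd8b1 was at 2197 to 2401 TPM in CD8SP and still at 24.3 to 36.0 TPM in CD4SP.

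The proteasome is the protease that degrades most ubiquitin-tagged proteins of the cell. Its 20S core is a barrel of stacked rings in which alpha subunits (Psma) guard the entrance and beta subunits (Psmb) line the chamber and hold the cutting sites. The 19S regulatory particle (Psmc ATPases and Psmd subunits) recognises, unfolds and feeds in the substrate. Interferon-gamma, and in lymphocytes also the resting state, gives a variant, the immunoproteasome: the inducible catalytic subunits Psmb8, Psmb9 and Psmb10 replace Psmb5, Psmb6 and Psmb7, and the activator PA28, made of Psme1 and Psme2, can cap the core. It is known for making peptides for MHC class I.

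Proteasome genes were abundantly expressed in both populations. The 46 members together took 1.45% ± 0.066 of the library's TPM in CD4SP and 1.34% ± 0.094 in CD8SP (SD, n = 3 each). The order of the genes was nearly the same in every library, with a Spearman rho between 2 libraries of 0.980 to 0.997 across the 46 members, which share their libraries and are no independent points. Mean levels over the 6 libraries ran from 12.8 TPM (Psmd9, a chaperone of 19S assembly) to 2045 TPM (Psmb8), a ratio of 160.

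**Figure D1:**
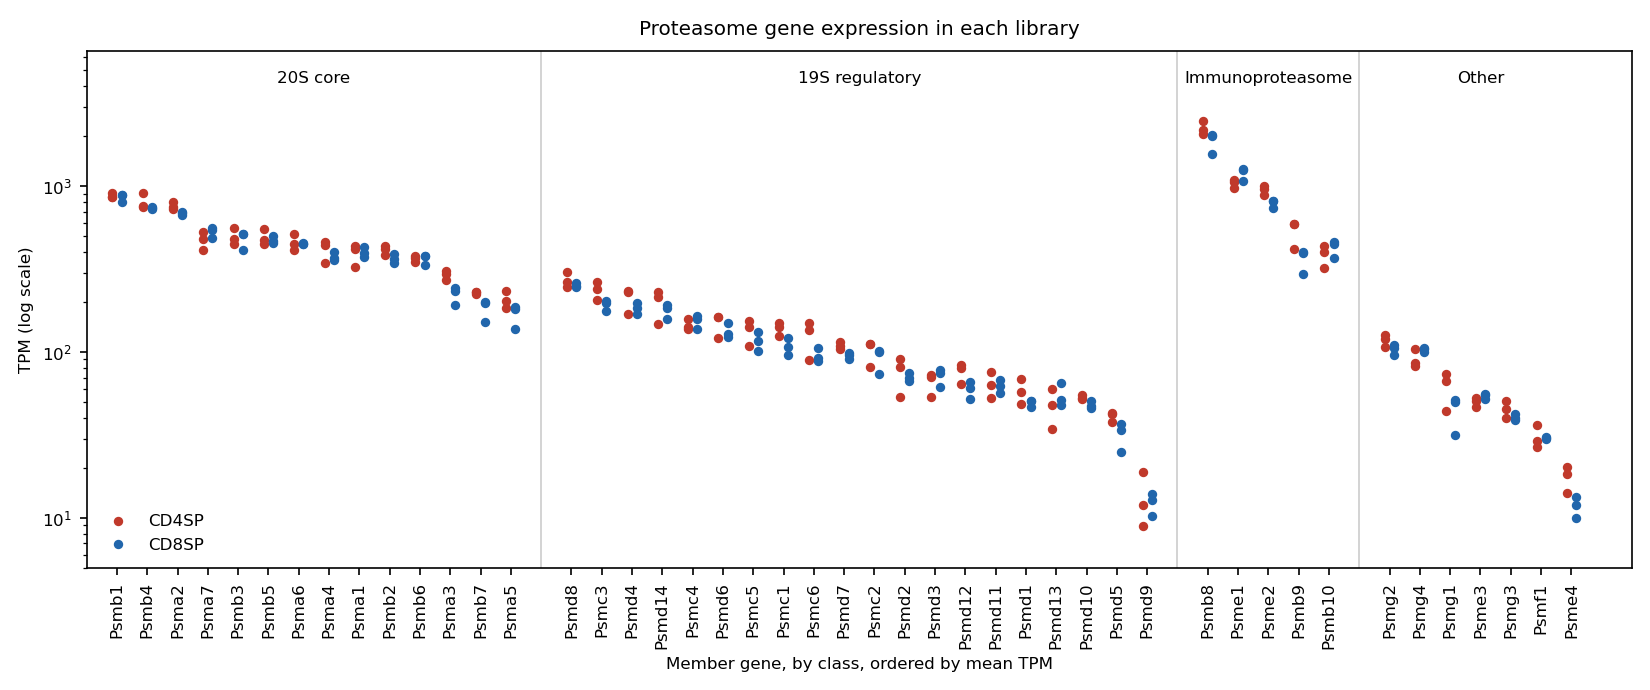
TPM (log axis) of the 46 member genes in each library, in red for the 3 CD4SP and in blue for the 3 CD8SP libraries, grouped by class and ordered by mean level. Psmb8 is the highest gene with 1570 to 2463 TPM, core genes lie above most regulatory genes, and red and blue points of most genes interleave.

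Core genes were the class with the narrowest range of levels. Their means lay between 187 TPM (Psma5, of the alpha ring) and 865 TPM (Psmb1, a beta subunit without a cutting site), a ratio of 4.62, against 20.4 within the regulatory, 5.05 within the immunoproteasome and 7.55 within the other members. In CD4SP replicates 1, 2 and 3 (the order used throughout) Psmb1 had 863, 857 and 903 TPM, against 884, 879 and 803 TPM in those of CD8SP, so the populations overlapped. Psma5 was at 234, 184 and 202 TPM in CD4SP and at 181, 186 and 137 TPM in CD8SP, and they overlapped as well.

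Regulatory genes had lower levels, from 12.8 TPM (Psmd9) to 261 TPM (Psmd8, a subunit of the 19S lid). The median core gene stood 4.10 to 4.90 times above the median regulatory gene in the 6 libraries. TPM is corrected for length, but the median of the longest annotated transcript was 1220 bases for core and 1986 for regulatory members, and levels were lower for longer transcripts across the 46 members (Spearman rho -0.46, a description of genes that share libraries). The part of transcript length in the core to regulatory ratio was not tested. Psmd8 was at 265, 247 and 302 TPM in CD4SP and at 248, 260 and 245 TPM in CD8SP. Psmd9 was at 18.9, 8.92 and 11.9 TPM in CD4SP and at 12.8, 10.3 and 13.9 TPM in CD8SP, with CD4SP replicate 1 apart from the rest.

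Immunoproteasome genes reached the highest levels of all members, 405 TPM (Psmb10) to 2045 TPM (Psmb8) on average. Summed, the 5 genes held 4873 to 5501 TPM in CD4SP and 4042 to 4932 TPM in CD8SP, against 6422 to 6820 and 5970 to 6474 TPM for the 14 core genes. The thymus-specific beta subunit Psmb11 did not pass the level filter, with 0.194 and 0.343 TPM in CD4SP replicates 1 and 2 and a listing at 0 in the other 4 libraries. Psma8, an alpha subunit known from testis, was listed at 0 in all 6 libraries.

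The question of the design is how CD4SP differ from CD8SP iT cells. None of the 46 members passed the test. With limma on log2(TPM + 1), fitted on all 10476 genes with Benjamini-Hochberg adjustment, 0 of the 46 members had an adjusted p under 0.05, and so 0 also passed with a difference over 2-fold. The study used both thresholds, with DESeq2, to compare iT cells with natural T cells. An unadjusted p under 0.05 was found for 6 of the 46 (Psma3, Psmb7, Psmb9, Psmc1, Psme2 and Psme4), against 37.1% of all tested genes. Over all tested genes, 20.8% had an adjusted p under 0.05, 17.6% with the higher level in CD4SP, and 9.73% also differed over 2-fold. In bulk libraries, fewer cells that express a gene and less RNA of it per cell cannot be told apart.

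With TPM as deposited, the difference was bounded within 2-fold for a larger share of members than of all tested genes. For 44 of the 46 members the 95% interval of the difference lay within 2-fold either way, against 58.1% of all tested genes. The exceptions reached just past 2-fold at their upper end: Psmg1, a chaperone of the core's alpha ring, with an interval of -0.10 to 1.03, and Psme4 (PA200, a nuclear activator) with 0.065 to 1.01 on the log2 scale. The median standard error of the log2 difference was 0.14 for members and 0.22 for all tested genes. Members were not compared with genes of like level, and intervals were formed for TPM as deposited only.

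Below the threshold, the estimates were not centred on 0. Of the 46 log2 differences (CD4SP minus CD8SP, positive where CD4SP was above), 37 were positive and 9 negative, with medians of 0.082 for core, 0.15 for regulatory, 0.27 for immunoproteasome and 0.16 for the other members. The median of all tested genes was itself 0.28, and 35 of the 46 members lay below it. The 3 CD4SP libraries all lay above the 3 CD8SP libraries for 12 members (Psma2, Psma3, Psmb7, Psmb8, Psmb9, Psmc1, Psmc3, Psmd5, Psmd7, Psmd10, Psme2 and Psme4) and the reverse held for 0, against 36.6% and 6.61% of all tested genes.

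**Figure D2:**
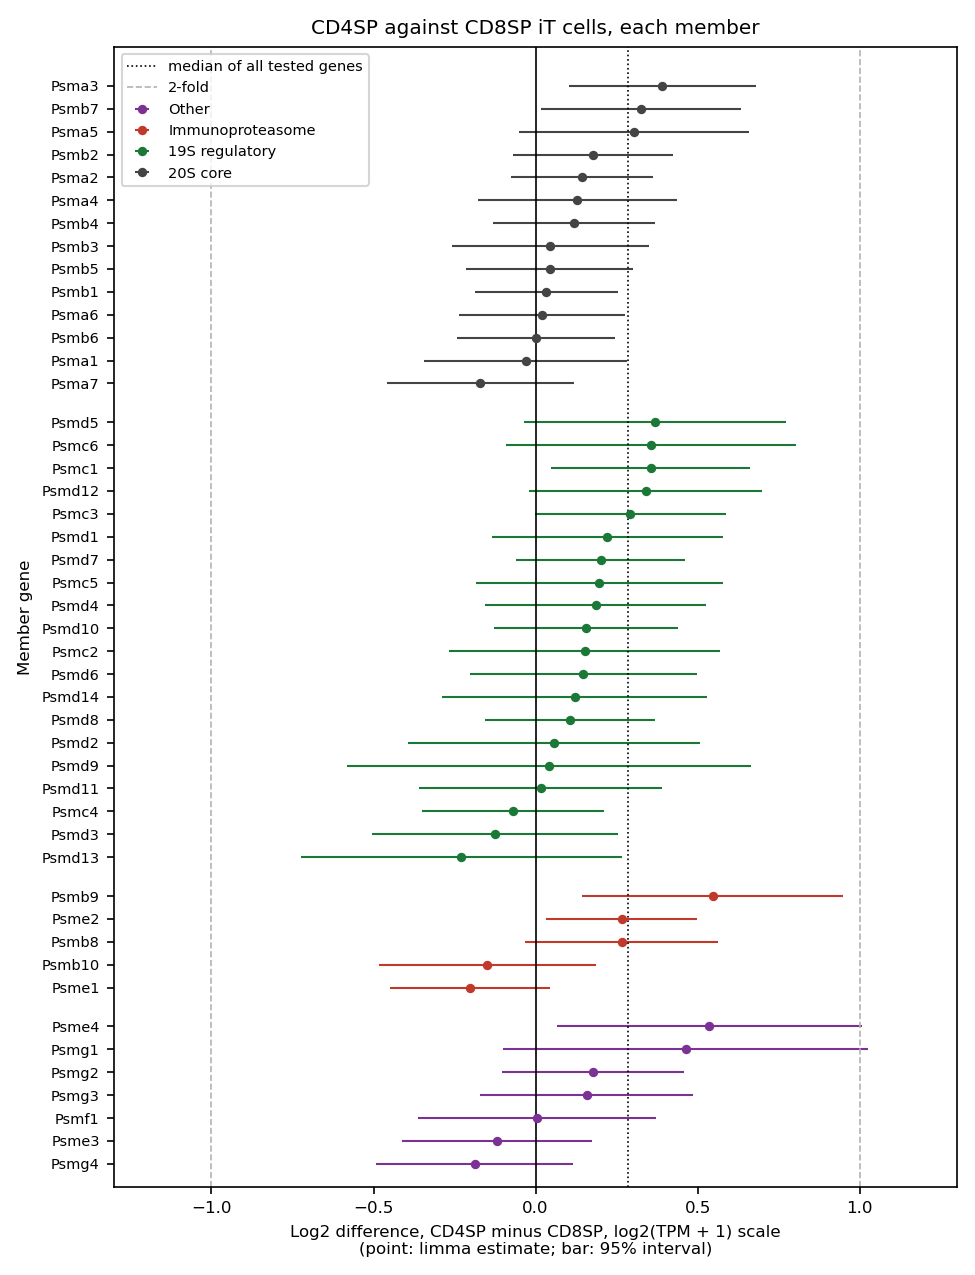
Log2 difference between CD4SP and CD8SP (limma estimate, point) with its 95% interval (bar) for each of the 46 members, coloured by class; the dotted line is the median of all tested genes, 0.28, and dashed lines mark 2-fold. Most points lie between 0 and the dotted line, and only the upper ends of Psme4 and Psmg1 pass the 2-fold line.

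The direction of these differences depended on how libraries were scaled. TPM forces each library to 1 total, and the 86 rows of cytoplasmic ribosomal protein genes took 24.1%, 28.8% and 24.5% of it in CD4SP and 32.6%, 32.2% and 36.0% in CD8SP. When libraries were instead rescaled by the median ratio over genes (median-of-ratios), the median of all tested genes moved from 0.28 to 0.00016, the members' median moved from 0.15 to -0.16, and 37 of 46 differences were below 0. On that scale 6 members passed with limma, all with the lower level in CD4SP: the alpha subunits Psma1 and Psma7, the ATPase Psmc4, the lid subunit Psmd3, and the activators Psme1 and Psme3. This compares with 7.46% of all tested genes lower in CD4SP on the same scale. So the calls went from 0 higher and 0 lower to 0 higher and 6 lower. With the replicate number as a block on that scale, 3 members passed by limma, all lower in CD4SP: Psma7, Psme1 and Psmd13. In that fit 12.3% of all tested genes passed in either direction.

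**Figure D3:**
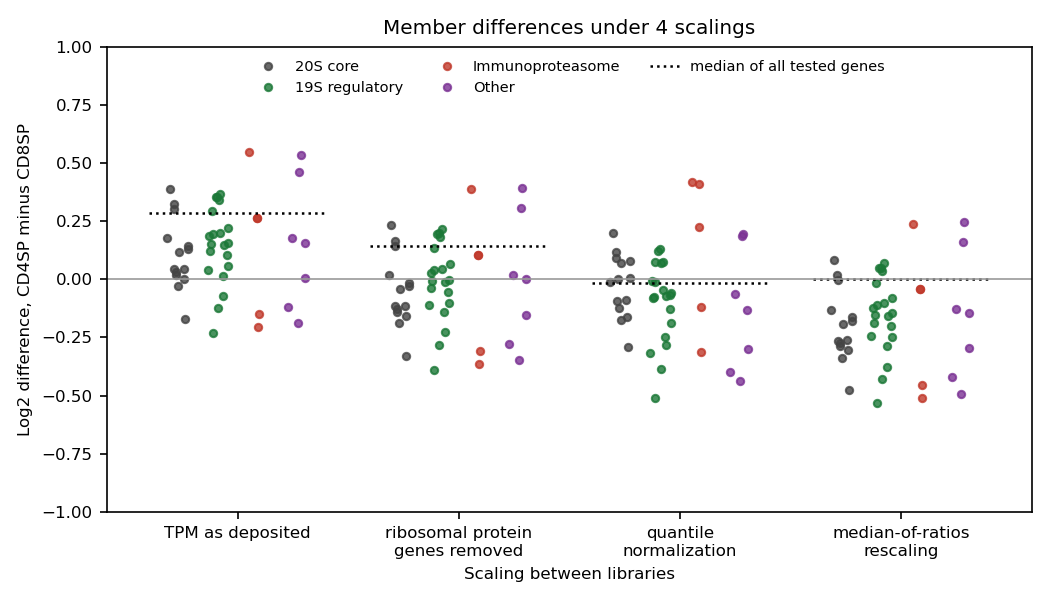
Log2 differences of the 46 members, CD4SP minus CD8SP, under 4 ways to scale libraries against each other, coloured by class; dotted lines are the median of all tested genes under each scaling. The whole set of points moves down from TPM as deposited (9 of 46 below 0) to median-of-ratios rescaling (37 of 46 below 0).

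Single libraries also decided the count. Without CD4SP replicate 2 the same fit gave 6 members with an adjusted p under 0.05 (Psma3, Psmc1, Psmc6, Psmd4, Psmd12 and Psme4, all higher in CD4SP) and 32.9% of all tested genes, and without CD4SP replicate 3 it gave 1 (Psmb9) and 12.8% of all tested genes. CD4SP replicate 2 was the lowest of its population for 16 of 20 regulatory, 7 of 14 core, 2 of 5 immunoproteasome and 5 of 7 other members, against 57.9% of all tested genes. Relative to the other CD4SP libraries, its immunoproteasome members lay at a median log2 deviation of 0.096 and its core members at -0.092. Its other members lay at -0.26 and its regulatory members at -0.40, with -0.23 for all tested genes. Psmd2, a scaffold of the 19S base, shows it: 90.3, 53.2 and 81.1 TPM in CD4SP, with replicate 2 apart, and 70.0, 74.2 and 66.7 TPM in CD8SP. In the CD8SP group, replicate 3 was the lowest library for 36 of 46 members, against 56.3% of all tested genes.

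Among core genes, Psma3, an alpha subunit, had the largest difference. It was at 307, 270 and 296 TPM in CD4SP and at 241, 234 and 192 TPM in CD8SP, with every CD4SP library above. The log2 difference was 0.39 ± 0.13 (SE; limma adjusted p = 0.0596), and 0.084 on the median-of-ratios scale. Pseudogene copies of Psma3 with at least 95% identity exist in the annotation, and how reads of such copies were shared out is not stated.

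Next in order were Psmb7 (0.32 ± 0.14 SE, adjusted p = 0.120), the constitutive trypsin-like site, Psma5 (0.30 ± 0.15, adjusted p = 0.191) and Psmb2, a beta subunit without a cutting site (0.18 ± 0.11, adjusted p = 0.268), all by limma. Without CD8SP replicate 3 the difference of Psmb7 was 0.19 and that of Psma5 0.16. At the other end Psma7 stood at -0.17 ± 0.13 (limma adjusted p = 0.356; -0.069 without CD4SP replicate 2). It was at 531, 410 and 482 TPM in CD4SP and at 546, 562 and 488 TPM in CD8SP, and the populations overlapped. The catalytic subunits Psmb5 and Psmb6, the chymotrypsin-like and caspase-like sites of the constitutive core, gave intervals of -0.22 to 0.30 and of -0.24 to 0.25.

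Differences of regulatory genes ran from -0.23 to 0.37, against -0.17 to 0.39 for core genes. The 6 ATPases of the ring that unfolds substrates, Psmc1 to Psmc6, had a median difference of 0.24, the 8 lid subunits 0.11, the 3 non-ATPase base subunits Psmd1, Psmd2 and Psmd4 0.18, and the 3 assembly chaperones Psmd5, Psmd9 and Psmd10 0.16. Psmc1 was at 141, 125 and 150 TPM in CD4SP and at 121, 108 and 96.1 TPM in CD8SP, with every CD4SP library above (0.35 ± 0.13 SE, limma adjusted p = 0.0940). Psmd5 was at 42.0, 42.9 and 37.7 TPM in CD4SP and at 36.8, 33.8 and 24.8 TPM in CD8SP (0.37 ± 0.18, limma adjusted p = 0.169), and its difference was 0.20 without CD8SP replicate 3.

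For Psmc6, another ATPase, the difference was 0.36 ± 0.20 (limma adjusted p = 0.220), with 0.58 without CD4SP replicate 2 (adjusted p = 0.0154) and 0.21 without CD4SP replicate 3, and CD4SP replicate 2, at 89.4 TPM, fell within the CD8SP range of 88.5 to 106 TPM. The lid subunit Psmd12 was at 83.3, 63.6 and 80.3 TPM in CD4SP and at 60.9, 65.8 and 51.8 TPM in CD8SP (0.34 ± 0.16, limma adjusted p = 0.155). Here too replicate 2 alone made the groups overlap. The lowest estimates were those of the lid subunits Psmd13 (-0.23 ± 0.22, adjusted p = 0.470) and Psmd3 (-0.13 ± 0.17, adjusted p = 0.613) and of the ATPase Psmc4 (-0.070 ± 0.12, adjusted p = 0.709), by limma. Leaving out 1 library moved all 3: without CD4SP replicate 2 Psmd13 was at -0.021, Psmd3 at 0.014 and Psmc4 at -0.030. Other libraries moved them the other way, with Psmd13 at -0.41 without CD4SP replicate 1. Without CD8SP replicate 3 Psmd3 was at -0.23 and Psmc4 at -0.14. Psmd13 shares exon sequence with Sirt3, and exons of Psmb7, Psmc3, Psmb9 and Psme1 overlap those of Nek6, Slc39a13, Tap1 and Emc9 in the annotation. Whether the counting used strand is not stated, so levels of these genes are uncertain to that extent.

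Immunoproteasome genes had estimates in both directions, 3 above 0 and 2 below. Psmb9 had a difference of 0.55 ± 0.18 (SE; limma adjusted p = 0.0589), a 1.46-fold higher level in CD4SP that did not pass. It was the largest of all members in this fit, but Psme4 lay above it in several others. These were a pseudocount of 0.1 (0.57 against 0.55), the median-of-ratios scale (0.25 against 0.24) and ribosomal protein genes removed (0.394 against 0.387). They also were library weights (0.55 against 0.37) and fits without CD4SP replicate 2 (0.68 against 0.46), CD8SP replicate 3 (0.43 against 0.41) or both (0.57 against 0.32). With these weights and left-out libraries Psmc6 lay above Psmb9 as well. Psmg1 did so with library weights (0.43), without CD4SP replicate 2 (0.68) and without both libraries (0.47). Without both, Psma3 (0.34), Psmc1 (0.35), Psmd9 (0.36) and Psmd12 (0.36) also lay above Psmb9. Without CD4SP replicate 3 Psmb9 was at 0.71 (limma adjusted p = 0.0339). With the replicate number as a block, a pairing that is not established, it passed at 0.55 (limma adjusted p = 0.0286). It was at 589, 594 and 419 TPM in CD4SP and at 397, 399 and 297 TPM in CD8SP. Every CD4SP library lay above every CD8SP library, and replicate 3 was lowest in both groups.

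Psmb8 was at 2463, 2061 and 2164 TPM in CD4SP and at 2016, 1999 and 1570 TPM in CD8SP (0.27 ± 0.13 SE, limma adjusted p = 0.178). The groups did not overlap, though CD4SP replicate 2 and CD8SP replicate 1 were close. Psmb10 was at 433, 399 and 322 TPM in CD4SP and at 463, 445 and 368 TPM in CD8SP, with overlap (-0.15 ± 0.15, limma adjusted p = 0.488). Its estimate was -0.026 without CD4SP replicate 3 and -0.25 without CD8SP replicate 3, and that of Psmb8 was 0.15 without CD8SP replicate 3.

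Of the PA28 subunits, Psme2 was at 957, 995 and 889 TPM in CD4SP and at 813, 817 and 732 TPM in CD8SP, without overlap (0.27 ± 0.10 SE, limma adjusted p = 0.0978). Psme1 was at 1059, 975 and 1080 TPM in CD4SP and at 1242, 1273 and 1075 TPM in CD8SP (-0.20 ± 0.11, limma adjusted p = 0.207). The paired subunits thus had estimates of opposite sign, and only the lowest CD8SP library overlapped for Psme1. On the median-of-ratios scale Psme1 passed at -0.51 (limma adjusted p = 0.0116) and Psme2 stood at -0.042. The annotated gene Psme2b has a transcript 99.4% identical to Psme2 over 794 bases, so the Psme2 level may include its reads.

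Ratios between genes of 1 library do not change when the whole library is multiplied by 1 factor, as in TPM or median-of-ratios scaling (quantile normalization does change them), and were formed for each inducible subunit over the subunit it replaces. The Psmb8 to Psmb5 ratio was 5.50, 4.39 and 3.95 in CD4SP and 4.06, 4.30 and 3.44 in CD8SP, so Psmb8 was the main transcript in every library and the populations overlapped (log2 difference 0.22, exact two-sided permutation p = 0.4). The Psmb9 to Psmb6 ratio was 1.56, 1.62 and 1.21 in CD4SP and 1.04, 1.05 and 0.890 in CD8SP, without overlap (log2 difference 0.55, exact permutation p = 0.1). The Psmb10 to Psmb7 ratio ran the other way, 1.94, 1.74 and 1.39 in CD4SP and 2.34, 2.21 and 2.44 in CD8SP, again without overlap (log2 difference -0.47, exact permutation p = 0.1). With 20 assignments of 6 libraries, 0.1 is the smallest p that the test can give, and adjusted over the 3 ratios the values were 0.4, 0.15 and 0.15 in the same order. None can therefore pass 0.05. Psmb5 and Psmb6 have pseudogene copies of at least 95% identity, whose reads may count in the denominators.

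The log2 difference of each ratio kept its sign when any 1 library was left out, at 0.088 (without CD4SP replicate 1) to 0.33 for Psmb8 to Psmb5, 0.47 to 0.67 for Psmb9 to Psmb6 and -0.58 to -0.34 for Psmb10 to Psmb7. The Psme1 to Psme2 ratio, formed after its values had been seen and given without a test, was 1.11, 0.979 and 1.22 in CD4SP and 1.53, 1.56 and 1.47 in CD8SP. Every CD8SP library lay above every CD4SP library. Summed over the 3 exchanges, the inducible subunits held 76.9%, 74.1% and 72.1% of the TPM of the 6 catalytic genes in CD4SP and 72.8%, 73.1% and 70.4% in CD8SP. The mean share was 74.4% ± 2.39 and 72.1% ± 1.50 (SD, n = 3 each). The difference of 2.25 points was 0.999 without CD4SP replicate 1, 1.39 without CD8SP replicate 3 and 3.38 without CD4SP replicate 3. The share thus overlapped between the populations, while its Psmb9 part (59.1% ± 3.80 against 49.8% ± 2.36) and its Psmb10 part (62.6% ± 3.97 against 70.0% ± 1.01) differed in opposite directions.

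**Figure D4:**
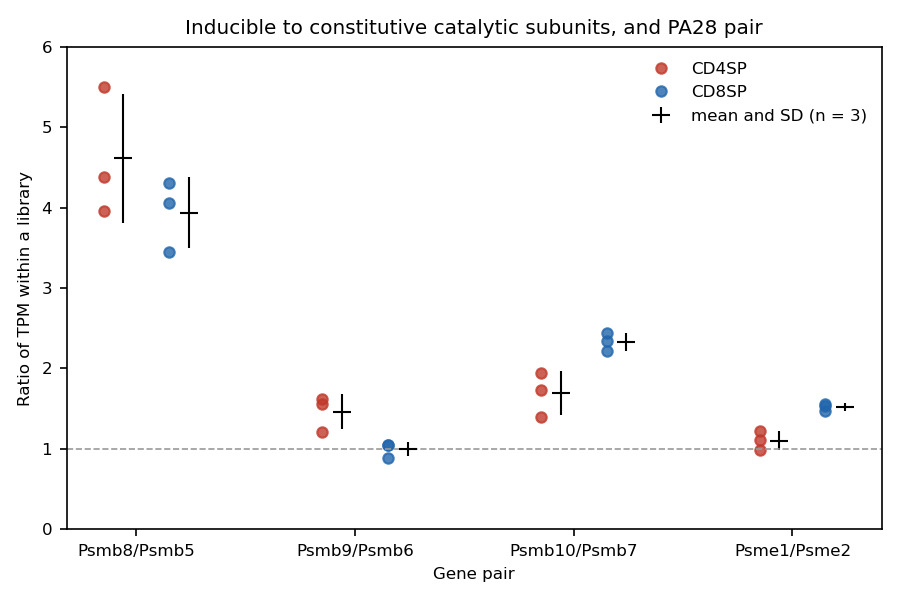
Ratio of TPM within each library for the 3 inducible over constitutive catalytic pairs and for Psme1 over Psme2, red for CD4SP and blue for CD8SP, with the mean and SD of 3 libraries beside the points and a dashed line at equal levels. Points separate by population for Psmb9/Psmb6 (CD4SP above) and for Psmb10/Psmb7 and Psme1/Psme2 (CD8SP above), and overlap for Psmb8/Psmb5.

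The sequence upstream of the exchanged catalytic genes, other than Psmb7, is given to show which letters known from interferon and stress control occur there. Of the 46 members, 39 had a window in the RefSeq promoter table (GRCm38.p6), and the 250 bases before the start were searched on both strands for TTCNNNGAA (the GAS element of interferon-gamma responses), GAAA, any 2 bases and GAAA again (an interferon regulatory factor element) and TGACNNNGC (the antioxidant response core, which NFE2L1, an activator of proteasome genes, can bind). Of 32851 windows, 7.02%, 2.98% and 10.2% held them. The first was present in 1 of 5 immunoproteasome members (Psmb8), 0 of 11 core, 0 of 17 regulatory and 1 of 6 other members (Psmg1). The last was present in 0 of 5 immunoproteasome, 2 of 11 core (Psmb5 and Psmb6) and 3 of 17 regulatory members (Psmc6, Psmd9 and Psmd12), and the interferon regulatory factor element in 0, 1 (Psmb3) and 2 (Psmd4 and Psmd9), with 0 of 6 other members for both. These stretches are written 5′ to 3′ on the gene's strand, with a match in capitals, and leave out annotated exons where that was possible; no match below overlaps another.
Psmb8, chr17:34198088-34198117, + strand: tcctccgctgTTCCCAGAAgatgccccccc
Psmb9, chr17:34187331-34187360, - strand: cctgcaccgcgcgcagccgctgattggaaa
Psmb5, chr14:54618023-54618245, - strand: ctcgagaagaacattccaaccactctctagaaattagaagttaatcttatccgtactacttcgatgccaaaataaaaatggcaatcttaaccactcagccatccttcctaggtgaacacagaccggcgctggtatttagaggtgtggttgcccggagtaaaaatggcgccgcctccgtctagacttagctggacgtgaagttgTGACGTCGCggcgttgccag
Psmb6, chr11:70525107-70525356, + strand: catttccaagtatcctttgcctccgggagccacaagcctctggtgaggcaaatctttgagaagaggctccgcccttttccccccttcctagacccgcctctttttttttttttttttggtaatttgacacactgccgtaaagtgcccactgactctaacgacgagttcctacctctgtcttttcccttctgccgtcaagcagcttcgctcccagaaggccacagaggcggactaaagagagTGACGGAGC
Psmb10, chr8:105938445-105938642, - strand: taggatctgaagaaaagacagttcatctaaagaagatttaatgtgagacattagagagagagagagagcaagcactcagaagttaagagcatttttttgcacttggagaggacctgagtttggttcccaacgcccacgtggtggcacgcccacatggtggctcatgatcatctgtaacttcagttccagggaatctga

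Counted from the RefSeq start of the window, the match of Psmb8 begins 97 bases before it and those of Psmb5 and Psmb6 47 and 9 bases before theirs, and the stretches of Psmb9 and Psmb10 hold none of the 3. The RefSeq starts differ from those of the GENCODE genes: the printed stretch of Psmb8 lies within the GENCODE span of Psmb8 and that of Psmb9 within the span of Psmb9, and all 250 bases before either RefSeq start are in annotated exons. A match is a run of letters and was not tested for binding.

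Psmb8 and Psmb9 lie in the MHC class II region with the peptide transporter genes. In the GENCODE annotation of mm10, Psmb9 is at chr17:34181987-34187764 on the minus strand, Tap1 at chr17:34187553-34197225, Psmb8 at chr17:34197721-34201454 and Tap2 at chr17:34203527-34216321, these on the plus strand. Psmb9 and Tap1 overlap head to head in annotated exons and 496 bases separate Tap1 from Psmb8. Tap1 was at 421, 362 and 370 TPM in CD4SP and at 256, 270 and 244 TPM in CD8SP, and it rose (log2 difference 0.58 ± 0.11 SE, limma adjusted p = 0.00865), as did Tap2 (0.81 ± 0.22, adjusted p = 0.0372). Tap1 passed in all 6 fits without 1 library and Tap2 in 1 of them. Whether the differences of the 4 genes differ from each other was not tested.

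Of 10 genes that load MHC class I or drive its genes, 5 passed with the higher level in CD4SP (17.6% of all tested genes did) and 0 with the lower, with a median log2 difference of 0.44 against 0.28 for all tested genes. Besides Tap1 and Tap2 these were the loading factor Tapbp (0.56, adjusted p = 0.0116), the light chain B2m (0.52, adjusted p = 0.00673) and the transcription factor Irf1 (0.59, adjusted p = 0.0380), by limma. Irf1, which is induced by interferon, was at 401, 344 and 345 TPM in CD4SP and at 269, 277 and 186 TPM in CD8SP, without overlap. None of the 5 was over 2-fold, and on the median-of-ratios scale none of the 10 passed, with the lowest limma adjusted p at 0.102 (Tap1). Without CD8SP replicate 1 or 2 the count was 2 (B2m and Tap1), and it was 3 without CD4SP replicate 1 or CD8SP replicate 3. In these fits 10.2%, 10.6%, 14.4% and 12.7% of all tested genes passed, in the same order, so the share of all genes was lower too. B2m and Tap1 passed in all 6 of the fits without 1 library, Tapbp in 4, and Irf1 and Tap2 in 1 each. Nlrc5, Calr, Pdia3, Tapbpl and Erap1 did not pass on either scale.

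Some markers of other cell types also differed between the populations, and the source of these transcripts was not tested. The summed antigen-presenting markers H2-Aa, H2-Ab1 and Cd74 were at 87.5 to 109 TPM in CD4SP and 22.9 to 33.8 TPM in CD8SP, and all 3 of 3 rose. Myeloid markers summed to 17.1 to 31.3 TPM against 3.64 to 8.66 TPM, nearly all from Lyz2, with S100a8 and S100a9 at 0 throughout. Of the B cell markers, Cd79b was at 10.9 to 17.4 TPM in CD4SP and 18.5 to 21.6 TPM in CD8SP, and Cd79a at 2.23 to 3.56 against 1.52 to 1.73 TPM. On the deposited scale neither passed (limma adjusted p = 0.121 for Cd79b and 0.170 for Cd79a), and Ms4a1 and Pax5 were listed at 0. On the median-of-ratios scale Cd79b passed, lower in CD4SP (-0.78, limma adjusted p = 0.0175), and Cd79a did not (limma adjusted p = 0.443). The NK marker Klrb1c was lower in CD4SP (0.682 to 1.82 against 5.22 to 9.14 TPM) and Ncr1 was listed at 0. Immunoproteasome genes are also expressed by such cells, and the part of these transcripts in the differences of Psmb8, Psmb9 and Psme2 was not tested.

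Activators, inhibitor and chaperones outside the immunoproteasome had lower levels. Psme4 was at 20.3, 14.1 and 18.4 TPM in CD4SP and at 12.0, 13.4 and 9.92 TPM in CD8SP, without overlap (0.54 ± 0.21 SE, limma adjusted p = 0.0981). Psme3, the nuclear activator PA28 gamma, was at 46.2 to 52.8 TPM in CD4SP and 51.8 to 55.6 TPM in CD8SP (-0.12 ± 0.13, adjusted p = 0.530 by limma). Its difference was -0.066 without CD4SP replicate 2. Psmf1 (PI31, an inhibitor of the core) was at 30.6 ± 5.02 TPM in CD4SP and 30.3 ± 0.437 TPM in CD8SP (SD, n = 3 each), a difference within the spread.

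The 4 core chaperones, which assemble the alpha ring, gave estimates of both signs. Psmg1 was at 73.2, 43.7 and 66.7 TPM in CD4SP and at 49.6, 51.0 and 31.6 TPM in CD8SP, and the spread was wide enough that the populations overlapped (0.46 ± 0.25 SE, limma adjusted p = 0.208; 0.24 without CD8SP replicate 3). Psmg4 was at 81.8 to 105 TPM in CD4SP and 99.7 to 105 TPM in CD8SP (-0.19 ± 0.13, limma adjusted p = 0.331). Psmg2 (0.18 ± 0.12) and Psmg3 (0.16 ± 0.14) lay between. Without 1 library Psmg2 was at 0.12 to 0.24, Psmg3 at 0.075 to 0.24 and Psmg4 at -0.29 to -0.12. Pomp, which guides the maturation of the core and its inducible subunits, was at 345, 480 and 409 TPM in CD4SP and at 325, 327 and 393 TPM in CD8SP (0.23 ± 0.15, limma adjusted p = 0.281), and the difference was 0.12 without CD4SP replicate 2 and 0.35 without CD4SP replicate 1.

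Pomp belongs to a list of 30 ubiquitin-proteasome partners (shuttle factors, deubiquitinases, ubiquitin and E1 genes, Vcp and its cofactors, and regulators of proteasome genes). Of these, 28 were tested, 4 rose (17.6% of all tested genes did) and 0 fell by limma, and the median difference was 0.27 against 0.28 for all tested genes. The 4 were Ubqln2, a shuttle factor and the 1 gene over 2-fold (1.08, adjusted p = 0.0317), the 19S subunit gene Shfm1 (Sem1; 0.73, adjusted p = 0.0360), Akirin2, an adaptor for nuclear import of proteasomes (0.69, adjusted p = 0.0131), and Zfand5, an activator of the 26S particle (0.68, adjusted p = 0.0211). Shfm1 was at 401, 570 and 421 TPM in CD4SP and at 324, 312 and 209 TPM in CD8SP. It is the 1 gene of a 19S subunit that passed, and its symbol falls outside the naming rule of the members. Its call was kept in 1 of the 6 fits without 1 library and lost without a filter (limma adjusted p = 0.0604) and with ribosomal protein genes removed (0.0959). It was also lost with quantile normalization (0.0861) and with no trend (0.0723). Of the other 3, Akirin2 passed in 5 of the 6 fits, Zfand5 in 4 and Ubqln2 in 2. Zfand5 lost its call with the replicate number as a block (limma adjusted p = 0.0554) and Ubqln2 without a filter (0.0564). Both lost it with ribosomal protein genes removed (Zfand5 0.061, Ubqln2 0.065) and with CD8SP replicates 1 and 2 averaged (0.0903 and 0.0712). With quantile normalization none of these 3 passed.

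On the median-of-ratios scale none of the 4 passed, and 1 other did: Nfe2l2, a stress factor that can activate proteasome genes, was lower in CD4SP (-0.95, limma adjusted p = 0.0131). It was at 22.2, 14.3 and 27.2 TPM in CD4SP and at 30.8, 32.7 and 35.5 TPM in CD8SP, without overlap, and had an adjusted p of 0.0759 on the deposited scale. Its relative Nfe2l1, the main activator of constitutive proteasome genes, was at 10.8 to 13.2 TPM and 8.14 to 9.79 TPM (0.34, limma adjusted p = 0.224). Without CD8SP replicate 2 the count of partners that passed was 0 (10.6% of all tested genes passed). Without CD4SP replicate 2 it was 9 of 28, with 8 higher and 1 lower in CD4SP (32.9% of all).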

How the data were processed

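The authors amplified polyadenylated RNA of 1000 sorted cells per library with a whole-transcriptome kit, made transposase libraries, aligned reads to mm10 with HISAT2 and estimated levels with StringTie, and deposited them as TPM in 1 table of 6 libraries. Since TPM holds no read numbers, library depth is unknown and no counting interval could be given. A listing at 0 can be a failed estimate. Filters or handling of duplicates are not given in the sources used here.

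Deposited values were taken to log2(TPM + 1), which understates the change of low genes. Genes with at least 1 TPM in 3 of 6 libraries were fitted by population with limma 3.58.1 in R 4.3.3 (trend, Benjamini-Hochberg over 10476 genes). Rose and fell mean adjusted p under 0.05. The script was tested on simulated data. Catalytic ratios used log2 of (TPM + 1) values and an exact permutation test. Near-identical transcripts were searched with blastn 2.17.0 in the GENCODE M21 transcripts (at least 95% identity over 200 bases): 10 members had such a copy at another locus. Named were all immunoproteasome, constitutive catalytic and other members, the highest and lowest core and regulatory levels and their 4 largest differences in each direction, called list genes and Pomp; list genes that passed without 2-fold, Nfe2l2, Nfe2l1, Psmd2 and the Psme1 to Psme2 ratio were added after their values were seen. The members and lists were chosen with earlier results of these data known. One gene of the presentation list and 1 marker are not reported here. Rescaling, filters, pseudocount, weights, block and left-out libraries were tried as alternatives.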

Additional observations from a re-analysis of the deposited data

How the results depend on the processing

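The 0 members with an adjusted p under 0.05 (20.8% of all tested genes) became 6 with median-of-ratios rescaling (15.9% of all), 1 with quantile normalization (Psme3; 14.9%), 1 with ribosomal protein genes removed (Psme1; 15.8%), 5 with library weights (36.9%), 1 with the replicate number as a block (Psmb9, adjusted p = 0.0286; 1570 of 10476 genes) and 0 to 6 when 1 library was left out (10.2% to 32.9%; 6 without CD4SP replicate 2, 1 without CD4SP replicate 3). Chosen after seeing the data, median-of-ratios with the block gave 3 (12.3%), and leaving out CD4SP replicate 2 and CD8SP replicate 3, the libraries of lowest weight, gave 8 (32.8%). With pseudocount 0.1, no filter, a 5 TPM filter, no trend, or CD8SP replicates 1 and 2 averaged (their correlation of 0.987 was the highest), it stayed 0. In these fits 19.5%, 14.5%, 23.1%, 18.9% and 10.7% of all genes tested in each passed, in the same order. No member passed with 2-fold in any of the alternatives. Same-numbered libraries did not deviate together (mean r = 0.041, range -0.017 to 0.089; 3 of 6 libraries correlated best with their own number), so the pairing is not established.

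Partner genes that passed (4) became 2 without filter, 1 with median-of-ratios, quantile normalization, or median-of-ratios and block, 2 with ribosomal protein genes removed or CD8SP replicates averaged, 11 with weights, 9 without both low-weight libraries, and 0 to 9 without 1 library (9 without CD4SP replicate 2, 0 without CD8SP replicate 2, 2 without CD8SP replicate 1 or 3). Presentation genes (5) became 0 with median-of-ratios, alone or with the block, 2 with quantile normalization, ribosomal protein genes removed or CD8SP replicates averaged, 3 with no filter or no trend, and 2 to 6 without 1 library (2 without CD8SP replicate 1 or 2, 3 without CD4SP replicate 1 or CD8SP replicate 3). All presentation genes that passed were higher in CD4SP. The share of all tested genes, 20.8% in the main fit, was lower in some of these fits too. It was 14.5% with no filter, 18.9% with no trend and 10.7% with CD8SP replicates averaged. For the other fits the share is given above.

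Class medians turned negative with median-of-ratios, with or without the block: -0.23 for core, -0.15 for regulatory and -0.043 for immunoproteasome members. With quantile normalization they were -0.0055 for core and -0.071 for regulatory members, and with ribosomal protein genes removed -0.078 for core, -0.0037 for regulatory and 0.11 for immunoproteasome members. Without 1 library the regulatory median was 0.094 (without CD4SP replicate 1; 0.10 without CD4SP replicate 3) to 0.29 (without CD4SP replicate 2), and the core median 0.056 to 0.11. The immunoproteasome median was 0.18 without both low-weight libraries and 0.15 (without CD8SP replicate 3) to 0.29 without 1 library. The inducible share differed by 9.33 points for Psmb9 and Psmb6 alone and by -7.39 points for Psmb10 and Psmb7 alone, against 2.25 for all 3 exchanges.

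With median-of-ratios, with or without the block, these named genes changed sign, while the median of all tested genes moved from 0.28 to 0.00016: Pomp -0.074, Psma5 -0.0028, Psmb1 -0.28, Psmb2 -0.13, Psmb5 -0.26, Psmb6 -0.31, Psmb8 -0.043, Psmd8 -0.20, Psmd9 -0.24, Psme2 -0.042, Psmf1 -0.29, Psmg2 -0.13 and Psmg3 -0.14. With quantile normalization these were Psmb1 -0.00064, Psmb2 -0.010, Psmb5 -0.091, Psmb6 -0.16, Psmd8 -0.069, Psmd9 -0.32, Psmf1 -0.30, Psmg2 -0.063 and Psmg3 -0.13, and with ribosomal protein genes removed (all-gene median 0.14) Psmb1 -0.13, Psmb5 -0.12, Psmb6 -0.16, Psmd8 -0.053, Psmd9 -0.11 and Psmf1 -0.15. With library weights Psma1 was at 0.030 and Psmb6 at -0.057, without both low-weight libraries at 0.056 and -0.068, and with CD8SP replicates averaged Psmd9 was at -0.0046 and Psmf1 at -0.0018. Estimates that crossed 0 when 1 library was left out ran from -0.11 to 0.10 for Psma1, -0.012 to 0.057 for Psmb1, -0.042 to 0.10 for Psmb5, -0.061 to 0.037 for Psmb6, -0.23 to 0.014 for Psmd3, -0.23 to 0.27 for Psmd9 and -0.12 to 0.094 for Psmf1. Depth is unknown, and 3 libraries per population limit the precision.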
